A study of Mus musculus with 12 samples.

Results

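The miRNAs examined here are the late-annotated mouse miRNAs, defined as every feature of the count table named mmu-miR- with a number from 5000 to 6500, whatever its suffix or arm. The rule used names only and gave 165 of the 1995 features, or 8.27% of the table. The remainder consisted of 1100 miRNAs numbered below 5000 (let-7 included), 620 miRNAs numbered above 6500 and 110 piRNAs. Small RNAs were sequenced from serum extracellular vesicles (bEVs), enriched by differential ultracentrifugation, in 12 libraries from male mice on the C57BL/6 background, aged 8 to 12 weeks unless another age applied. All 12 mice were Rag1-/- and lacked their own mature T and B cells. In the T cell group, 6 mice received spleen T cells from wild-type mice by systemic injection. In the medium group, 6 mice received the vehicle. The comparison addresses which bEV miRNAs depend on the presence of T cells. The labels give no age, cage or preparation date for a single library, and the p-values measure the spread between the 6 libraries of a group.

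miRNAs are short RNAs cut from hairpin precursors, and either arm of the hairpin (5p or 3p) can be loaded into an Argonaute protein. Bases 2 to 8, the seed, do most of the pairing with target mRNAs, so miRNAs with the same seed can share targets. Numbers are given in the order of submission to miRBase, and most mouse miRNAs with high numbers come from deep sequencing and have little known function. EVs carry miRNAs from blood cells, vessels and organs into the serum.

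The mature sequences below are those of the 12 most abundant members, written 5′ to 3′ from RefSeq (GRCm38.p6) with the seed in capitals. They show which RNAs held the largest shares of the counts, and that these 12 carry 12 different seeds.
miR-6377: uCAUUUGUcuucgugucugcauc
miR-6340: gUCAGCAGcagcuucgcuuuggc
miR-6375: gAAUUGGCugacuguauuccaaa
miR-5106: aGGUCUGUagcucaguuggcaga
miR-6237: uUAAGGAUugggucuuggaauuc
miR-6413: uGGCUCAGaagagcagguagu
miR-5124a: gGUCCAGUgacuaagagcau
miR-5100: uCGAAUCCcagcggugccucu
miR-6420: aCUAAUCCuauaaaaucaaac
miR-5616-5p: uUUCCUCUcaucacaaguuga
miR-6364: uCGAUCCCcagcacuccuguga
miR-5110: gGAGGAGGuagagggugguggaauu

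A sequence was found for 143 of the 165 members, and 22 had none in the table used. Mature lengths ran from 18 to 26 bases with a median of 22, and GC content ran from 22.7% (miR-6365) to 100% (miR-5126), with a median of 52.4%. The 143 sequences held 129 different seeds, of which 119 occurred in 1 member only. On the same strand, 58 members lay in an intron, 17 in an exon and 68 outside any annotated gene (GENCODE vM21 on GRCm38). miR-5124a lies at chr13:40865801-40865820 on the plus strand, in an intron of Gcnt2, a glucosaminyltransferase that branches carbohydrate chains. miR-6377 lies at chr3:57616699-57616721 on the plus strand, antisense to an intron of the lincRNA Gm26671. miR-6340 lies at chr2:173701098-173701120 on the minus strand, antisense to an untranslated region of Rab22a, a GTPase of endosomes.

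The members took a smaller share of the counts in most T cell libraries than in the medium libraries. In the T cell group they made up 5.96, 3.45, 5.04, 6.36, 5.74 and 7.99% of the counts of replicates 1 to 6 (mean 5.76% ± 1.498, SD, n = 6). In the medium group the shares were 6.96, 6.90, 7.37, 7.46, 8.84 and 8.91% (mean 7.74% ± 0.91, SD, n = 6). T cell replicates 1 to 5 were below every medium library, and T cell replicate 6 was not. The difference was −1.98 percentage points, and it ran from −2.43 to −1.52 when 1 library was left out. No p-value is given, because the share is a sum over a chosen list. In bEVs, fewer vesicles of a kind and less RNA per vesicle cannot be told apart.

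The share of the members moved with that of the other high-numbered miRNAs. miRNAs above 6500 took 16.8% ± 4.29 of the counts in the T cell group and 21.8% ± 2.72 in the medium group (± SD, 6 libraries each). For every 100 counts of those miRNAs, the members had 34.3 ± 1.93 counts in the T cell group and 35.6 ± 1.65 in the medium group (± SD, 6 libraries each), within 31.6 and 37.9 in all 12 libraries. miRNAs below 5000 took 73.5% ± 6.80 and 65.8% ± 3.65. Ranked within each library, the first 10 features included miR-6377 in 4 libraries. The 10 features with the highest mean count over all 12 libraries included no member. Those 10 took 27.4% ± 7.92 of the counts in the T cell group and 17.8% ± 5.43 in the medium group (± SD, 6 libraries each). A share depends on all other RNAs in the library, and the part of those abundant features in the lower share of the members was not tested.

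**Figure D1:**
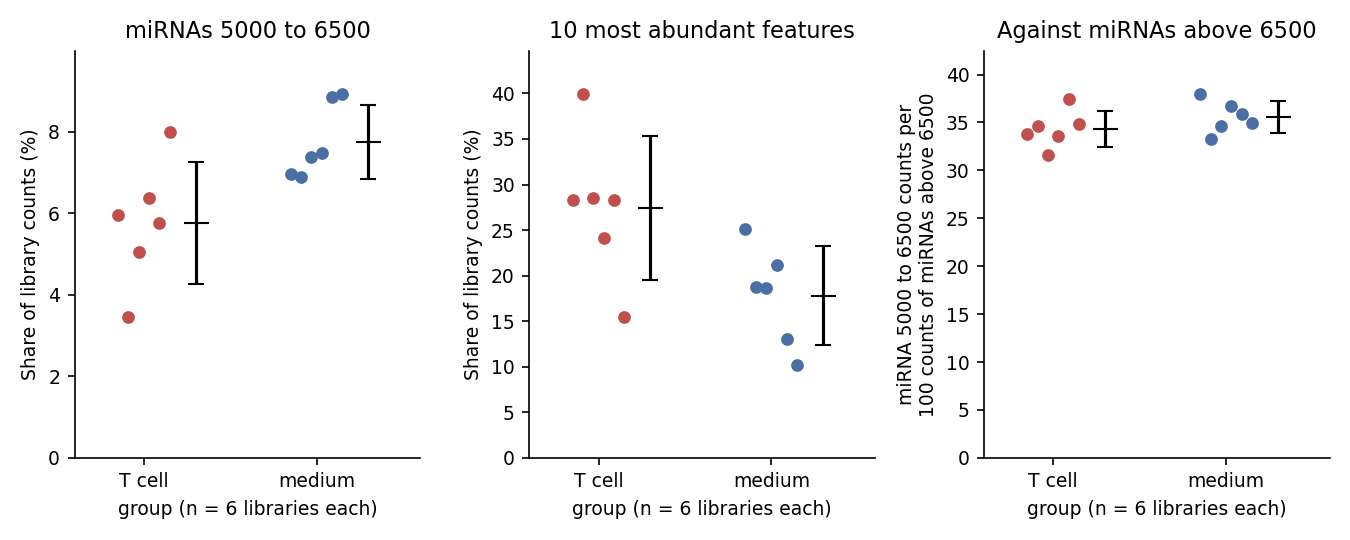
Share of library counts (%) taken by the 165 miRNAs numbered 5000 to 6500 (left) and by the 10 features with the highest mean count over all 12 libraries (middle), and counts of the 165 miRNAs per 100 counts of miRNAs above 6500 (right). Points are libraries, horizontal marks are means and bars are SD (n = 6 a group): the left panel averages 5.76% with T cells and 7.74% with medium, and the right panel 34.3 and 35.6.

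Library totals were 75475 to 130106 counts in the T cell group and 48997 to 116048 in the medium group. T cell replicate 2 and medium replicate 3 held no count from 1 to 9 for any feature, so a member listed at 0 there may have had a low count. Of miRNAs known from other tissues and cells, red blood cell markers (miR-451a, miR-486a-5p, miR-144-3p and miR-16-5p) summed to 3.29 to 14.3% of the counts with T cells and 1.99 to 9.26% with medium. Platelet and myeloid markers summed to 1.78 to 3.28% and 0.937 to 1.91%, lymphocyte markers to 1.22 to 1.71% and 0.676 to 1.83%, and the liver marker miR-122-5p took 0.1204 to 0.1997% and 0.0514 to 0.229%. Brain markers summed to 0.0530 to 0.0909% and 0.0716 to 0.155%, and muscle markers to 0.0538 to 0.138% and 0.0612 to 0.350%. No marker list was at 0 in any library. The red blood cell markers did not move alike. Mean counts were 5015 for miR-16-5p, 980 for miR-486a-5p, 239.5 for miR-451a and 36.1 for miR-144-3p. Their log2 fold changes in edgeR were 1.15, 0.95, 0.40 and −0.22, in the same order. The part of the red cell and platelet miRNAs in the differences below was not tested.

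Detection was wide and shallow. A library held 153.7 ± 10.2 members at 1 count or more in the T cell group and 155.2 ± 4.62 in the medium group (± SD, 6 libraries each), and 140.5 ± 12.7 and 146.7 ± 10.7 at 10 counts or more. In all, 121 of the 165 members were counted in all 12 libraries, and 142 in every library other than T cell replicate 2 and medium replicate 3, where 30 and 14 members were listed at 0. Only 7 members were found in 6 or fewer libraries. The mean count over 12 libraries had a median of 23.9 among the members, against 22.3 over all features, 24.3 below 5000 and 20.96 above 6500. For 131 members the mean count lay between 10 and 50, for 9 it was under 10, and for 5 it was 100 or more.

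The few abundant members therefore carried much of the class. The most abundant member, miR-6377, took 10.7% of all counts of the members, the first 3 took 19.2% and the first 12 took 32.7%. miR-6377 ranged from 3802 to 9040 CPM (median 7074) with T cells and from 3295 to 10636 CPM (median 7515) with medium, where CPM is the count scaled to a common library size with TMM factors. The groups overlapped over nearly their whole range, and its log2 fold change was −0.09 (standard error 0.31). miR-6340 ranged from 2086 to 4074 CPM (median 3484) with T cells and from 2924 to 5773 CPM (median 3871) with medium, and 2 T cell libraries were below the lowest medium library. Its log2 fold change of −0.38 (standard error 0.27) did not pass the test (edgeR, adjusted p = 0.990).

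The sign of the fold change of miR-6375 depended on 1 library. It was at 8661 CPM in T cell replicate 5 and between 825 and 2403 CPM in the other T cell libraries, and it ranged from 1042 to 2627 CPM (median 2054) with medium. The log2 fold change was 0.45 (standard error 0.48) over all libraries and −0.40 without T cell replicate 5. miR-5106 ranged from 1030 to 1331 CPM (median 1248) with T cells and from 1170 to 1804 CPM (median 1547) with medium. It was the most even member of the 112 tested ones with a mean count of 20 or more, with a coefficient of variation within groups of 13.0%. Its log2 fold change was −0.31 (standard error 0.20), and the groups overlapped (two-sided exact permutation test on CPM, unadjusted p = 0.0216, 1 of 21 such tests; edgeR, adjusted p = 0.958).

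**Figure D2:**
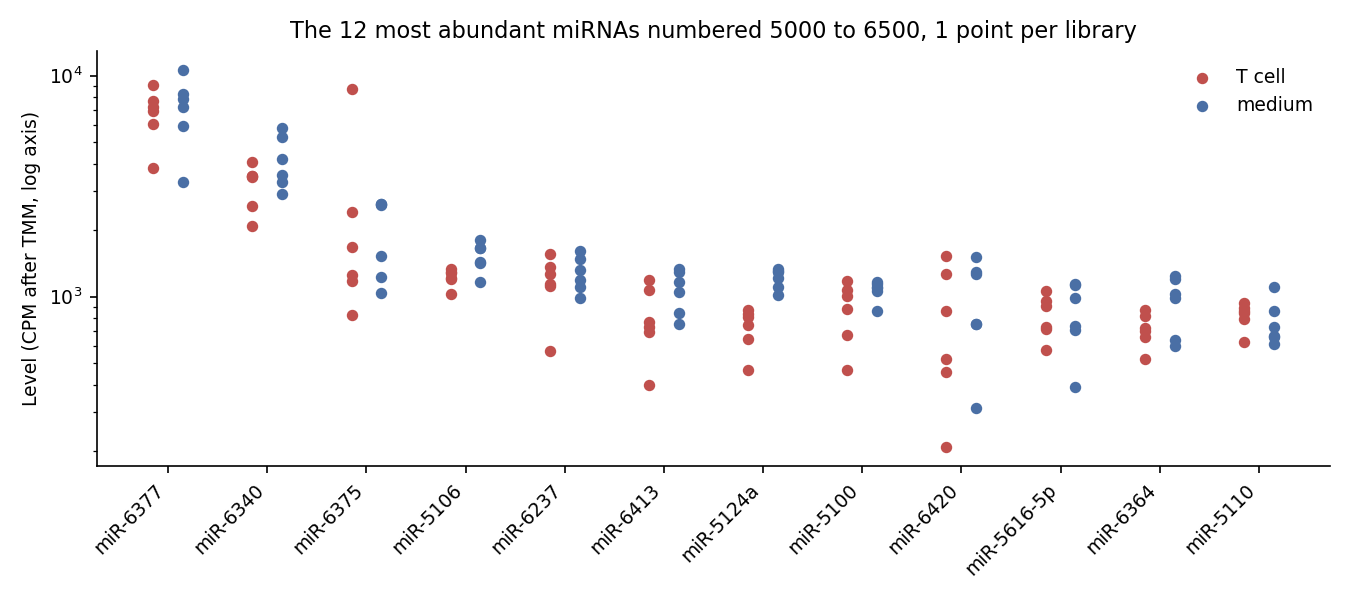
Level (CPM after TMM, log axis) of the 12 most abundant miRNAs numbered 5000 to 6500, 1 point per library (red, T cell; blue, medium; n = 6 each). miR-6377 lies between 3295 and 10636 CPM, miR-6375 has 1 T cell library at 8661 CPM, and miR-5124a is the member whose groups do not overlap.

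Of the remaining abundant members, miR-6237 was at 1170 ± 335 and 1280 ± 233 CPM (T cell and medium, ± SD, 6 libraries each), miR-6413 at 808 ± 283 and 1072 ± 236, miR-5100 at 880 ± 268 and 1071 ± 111, and miR-6420 at 807 ± 509 and 982 ± 449. miR-5616-5p was at 824 ± 180 and 847 ± 290 CPM, miR-6364 at 715 ± 121 and 947 ± 276, and miR-5110 at 823 ± 109 and 772 ± 185. In each of these 7 the groups overlapped and the adjusted p of edgeR was above 0.05. Within groups, the coefficient of variation of the tested members had a median of 38.4%, against 20.2% from counting alone and 42.4% over all tested features.

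miR-5124a was lower in every T cell library than in any medium library. It was at 805, 465, 741, 835, 640 and 869 CPM in T cell replicates 1 to 6 and at 1333, 1103, 1311, 1021, 1216 and 1286 CPM in medium replicates 1 to 6. The highest T cell library was below the lowest medium library, a pattern that 2 of the 1720 tested features showed (0.116%), while 3 features showed the opposite pattern (0.174%), none of them a member. The means were 726 ± 151 and 1212 ± 125 CPM (± SD, 6 libraries each), and the log2 fold change was −0.73 (standard error 0.21). The exact two-sided permutation test on CPM gave p = 0.00216, unadjusted and 1 of 21 such tests. It is the smallest p that 6 against 6 libraries can give, and it follows from the lack of overlap. miR-5124a was chosen with earlier results of these data known, so this p is not independent of that choice.

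The call on miR-5124a depended on the tool. edgeR's quasi-likelihood test gave an unadjusted p = 0.00255 and an adjusted p = 0.259, and DESeq2 gave a log2 fold change of −0.75 and an adjusted p = 0.00746. The DESeq2 call held with any 1 library left out (adjusted p from 0.00152 to 0.0273) and not without both libraries that lack counts from 1 to 9 (log2 fold change −0.61, DESeq2 adjusted p = 0.0675). miR-5124a was also the second most even of the 112 members (coefficient of variation 14.3%). Counted per 1000 counts of all members, which needs no scaling factor, it was at 8.76 to 12.6 with T cells and at 14.8 to 19.4 with medium. The means of 11.2 ± 1.84 and 17.6 ± 1.63 (± SD, 6 libraries each) differed in an exact two-sided permutation test (p = 0.00216, 1 of 2 members compared this way after their values were seen).

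miR-5124b, whose name places it beside miR-5124a, did not share this pattern. It was at 266 ± 118 CPM in the T cell group and 226 ± 57.1 CPM in the medium group (± SD, 6 libraries each), and its log2 fold change was 0.24 (standard error 0.36; edgeR, adjusted p = 0.990). The sequences share a stretch in the middle of the molecule and differ at the seed, shown in capitals.
miR-5124a: gGUCCAGUgacuaagagcau
miR-5124b: uGGCUCAGugacuaagaagca

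Across the members as a whole, edgeR called none at an adjusted p under 0.05, as for all 1720 tested features (0.0%), and limma voom also called none. At an unadjusted p under 0.05, 2 of the 157 tested members were higher (background 5.06%) and 5 were lower (background 1.92%). DESeq2 gave an adjusted p to 46 members and called 0 higher (background 7.13% of 561 features) and 1 lower, miR-5124a (background 0.713%). The median log2 fold change was −0.08 for the members, −0.05 for all tested features, −0.03 below 5000 and −0.07 above 6500. With libraries scaled to their total counts, the median moved to −0.42 for the members and to −0.38 for all features, and with libraries scaled to abundant miRNAs it moved to −0.60 and −0.55. Fold changes of members are thus to be read against those shifts.

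**Figure D3:**
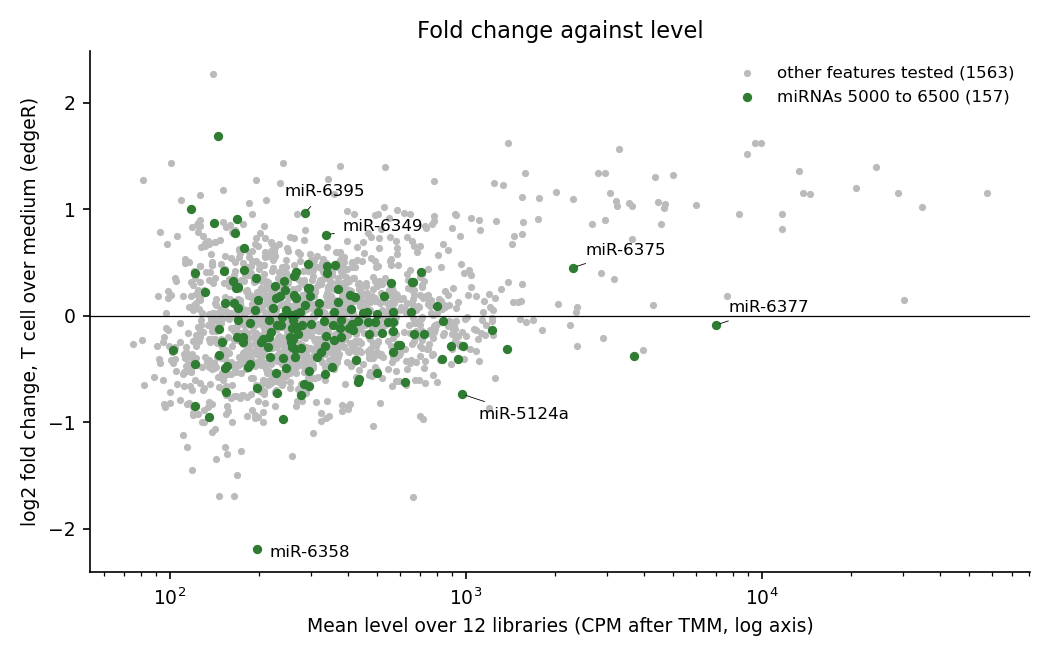
Log2 fold change (T cell over medium, edgeR) against mean level over 12 libraries (CPM after TMM, log axis) for the 157 tested miRNAs numbered 5000 to 6500 (green) and the other tested features (grey). Most members lie below 1000 CPM around a median of −0.08, and miR-5124a lies at −0.73 near 969 CPM.

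The 7 members at an unadjusted p under 0.05 were miR-5124a, miR-6358, miR-6372, miR-6241 and miR-6383, which had lower values with T cells, and miR-6395 and miR-6349, which had higher ones. Apart from miR-5124a in DESeq2, none of the 7 passed the adjusted threshold in edgeR or DESeq2. miR-6395 ranged from 217 to 488 CPM (median 401) with T cells and from 125 to 295 CPM (median 179) with medium, and 5 of 6 T cell libraries were above the highest medium library. Its log2 fold change was 0.97 (standard error 0.29; edgeR, adjusted p = 0.308), and DESeq2 gave it no adjusted p. Without T cell replicate 4, DESeq2 called it higher (log2 fold change 1.07, adjusted p = 0.0172). Per 1000 counts of all members, miR-6395 was at 5.99 ± 1.67 in the T cell group and 2.78 ± 0.885 in the medium group (± SD, 6 libraries each). The exact two-sided permutation test gave an unadjusted p = 0.00433. miR-6395 was 1 of 2 members compared this way after their values were seen, so this p is not independent of the fit above.

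miR-6349, which has the seed of the muscle miRNA miR-206-3p, ranged from 326 to 639 CPM (median 390) with T cells and from 165 to 343 CPM (median 264) with medium. In 3 T cell libraries it was above the highest medium library, and its log2 fold change was 0.76 (standard error 0.28; edgeR, adjusted p = 0.390). miR-6241 ranged from 289 to 623 CPM (median 387) with T cells and from 464 to 753 CPM (median 564) with medium. T cell replicate 5 was the 1 T cell library inside the medium range, and the log2 fold change was −0.53 (standard error 0.24; edgeR, adjusted p = 0.673). miR-6372 ranged from 202 to 498 CPM (median 361) with T cells and from 376 to 726 CPM (median 498) with medium, and its log2 fold change was −0.62 (standard error 0.27; edgeR, adjusted p = 0.630). It overlapped between the groups in 3 T cell libraries, and without T cell replicate 6 DESeq2 called it lower (adjusted p = 0.0385).

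The member with the lowest fold change, miR-6358, rested on 1 library. It was at 1268 CPM in medium replicate 3 and at 0 to 191 CPM in the other medium libraries, and at 0 to 185 CPM (median 47.8) with T cells. The log2 fold change was −2.19 (standard error 0.92; edgeR, adjusted p = 0.609) and −0.85 without medium replicate 3. Other members with large values of the fold change were taken only from those with a mean count of 20 or more. Of these, miR-6365 was at −0.97 (standard error 0.59), miR-5118 at −0.74 (standard error 0.48), miR-6385 at 0.48 (standard error 0.31) and miR-6360 at 0.48 (standard error 0.31), and none passed the test. Among tested members with lower mean counts, the log2 fold change reached 1.68. The values of miR-6385 and miR-6360 were −0.02 and −0.05 with libraries scaled to abundant miRNAs.

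**Figure D4:**
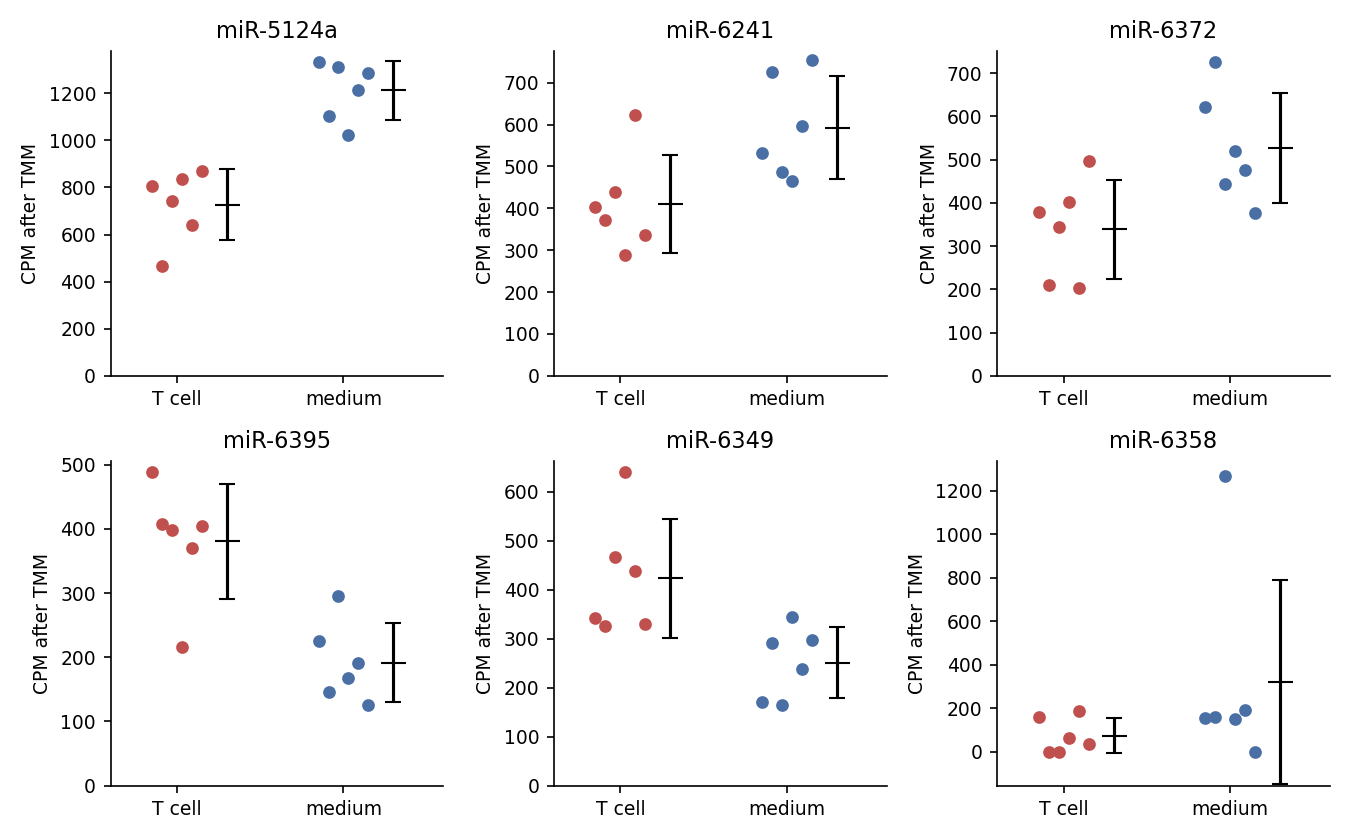
CPM after TMM in each library for the 6 members with the lowest unadjusted p in edgeR (points, libraries; horizontal marks, means; bars, SD; n = 6 a group; linear axes). All T cell values of miR-5124a are at most 869 CPM and all medium values at least 1021 CPM, whereas miR-6358 has 1 medium library at 1268 CPM.

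By number, the 39 members from 5000 to below 5200 had a median log2 fold change of −0.17 (37 tested), the 29 from 5200 to below 6000 of −0.06 (28 tested), the 7 from 6000 to below 6300 of −0.28 and the 90 from 6300 to 6500 of −0.06 (85 tested). All 7 members from 6000 to below 6300 had negative values in edgeR, from −0.53 to −0.12 (miR-6237 was at 0.015 with limma voom), against 942 of 1720 features over all, and 1 of the 7 was lower at an unadjusted p under 0.05 (background 1.92%). By arm, the median was 0.04 for 21 members named 5p, −0.07 for 21 named 3p (19 tested) and −0.12 for 123 without an arm suffix (117 tested). No test was made of these differences.

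Both arms were counted for 21 hairpins. The 5p arm had the higher mean count in 13 and the 3p arm in 8. In 5 hairpins (miR-5129, miR-5618, miR-5620, miR-5621 and miR-5627) the 5p arm was higher in each of the 12 libraries. The most unequal pair was miR-5618, with mean counts of 21.6 for 5p and 2.08 for 3p, followed by miR-5129 with 32.3 and 4.25. For miR-5625, miR-5132, miR-5709 and miR-6392 the 3p arm was higher in 11 of 12 libraries.

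Some members cannot be told apart from fragments of other RNAs. The mature sequence of 17 members occurred in full in a GENCODE vM21 transcript outside miRNA genes. Only those transcripts were searched, so a match to any RNA absent from them would have been missed. Apart from miR-6481, each match was to a transcript of a gene that the member itself overlaps on the same strand. miR-5121 (mean count 50) lies within Snord33, a small nucleolar RNA that guides ribosomal RNA methylation, in the Rpl13a gene at chr7:45126925-45126945 on the minus strand. Its level was 620 ± 304 CPM in the T cell group and 499 ± 175 CPM in the medium group (± SD, 6 libraries each), with overlapping groups (edgeR, adjusted p = 0.990). miR-6481 (mean count 14.7) has a sequence that also occurs in the mitochondrial phenylalanine tRNA gene mt-Tf, and it was at 168 ± 40.6 CPM in the T cell group and 172 ± 104 CPM in the medium group. miR-5128 differs by at most 1 base over at least 16 bases from miR-3473b and miR-3473e, so its counts are uncertain too. The sequences of miR-5121 and miR-6481 are shown because a fragment of the longer RNA would carry the same letters. That of miR-5128 is shown for its near match to the miR-3473 sequences.
miR-5121: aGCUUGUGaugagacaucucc
miR-6481: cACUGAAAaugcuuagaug
miR-5128: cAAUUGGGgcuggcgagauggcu

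A seed was shared with a miRNA outside the number range by 31 members, over 21 seeds, and with another member by 24, over 10 seeds. Only features with a matched RefSeq sequence were compared, so other miRNAs of the count table may share these seeds too. The seed groups below leave such miRNAs out. The seed of miR-24-3p, a conserved miRNA of many tissues that restrains cell cycle genes, occurred in 4 members, more than any other seed. The sequences are shown to mark how far each one agrees beyond the seed: miR-6369 has the first 13 letters of miR-24-3p, miR-5124b the first 9, and miR-6413 and miR-6410 the first 8.
miR-24-3p: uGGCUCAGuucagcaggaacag
miR-6413: uGGCUCAGaagagcagguagu
miR-5124b: uGGCUCAGugacuaagaagca
miR-6410: uGGCUCAGggacuacucugugc
miR-6369: uGGCUCAGuucaguguuggugag

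In this seed group the members held 40.9% ± 14.95 of the CPM in the T cell group and 66.0% ± 7.32 in the medium group (± SD, 6 libraries each). miR-24-3p itself was at 2278 ± 1390 CPM in the T cell group and 897 ± 318 CPM in the medium group (± SD, 6 libraries each), a difference known from earlier results of these data. miR-6413, the most abundant of the 4 members, had counts of 60, 66, 29, 115, 41 and 127 in the T cell libraries, where miR-24-3p had 133, 416, 110, 225, 150 and 101. In the medium libraries miR-6413 had 148, 58, 134, 139, 88 and 48 counts, against 98, 77, 145, 113, 57 and 25 of miR-24-3p. miR-6413 was the less abundant of the pair in 5 of 6 T cell libraries and in 2 of 6 medium libraries.

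The log2 ratio of miR-6413 to miR-24-3p in a library was −1.36 ± 1.03 in the T cell group and 0.32 ± 0.50 in the medium group (± SD, 6 libraries each). The difference was −1.68 (two-sided exact permutation test, p = 0.00866, Benjamini-Hochberg adjusted p = 0.0433 over 5 such pairs), and 5 of 6 T cell libraries were below every medium library. The pairs were the 5 seeds whose most abundant older miRNA had a mean count of 100 or more, each with its most abundant member, and they were compared after the data had been seen. The difference of miR-24-3p was known before the ratio was taken, so this p is not a test of miR-6413 itself. The ratio is free of the scaling of the libraries, and it cannot say which of its parts moved. In the edgeR fit, the log2 fold change was −0.41 (standard error 0.26) for miR-6413 and 1.34 (standard error 0.37) for miR-24-3p. For miR-6413 the adjusted p was 0.956 in edgeR and 0.367 in DESeq2. For miR-24-3p it was 0.259 in edgeR and 0.0125 in DESeq2.

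In the other 4 pairs the difference did not pass after adjustment. For miR-6367 against miR-125a-5p, a regulator of blood cell development, the log2 ratio was −3.67 ± 1.57 with T cells and −1.70 ± 1.26 with medium (difference −1.97, exact permutation p = 0.0411, adjusted p = 0.0830). miR-6383 against miR-93-5p, of the proliferation-linked miR-17 family, differed by −1.59 (exact permutation p = 0.0498, adjusted p = 0.0830), and miR-6419 against miR-16-5p, a miRNA abundant in red blood cells, by −1.34 (exact permutation p = 0.0758, adjusted p = 0.0947). miR-6341 against miR-301a-3p, a relative of miR-130, differed by 0.67 (exact permutation p = 0.604). miR-6341 was counted in only 8 of the 12 libraries. These ratios too cannot say which of their parts moved. In edgeR the log2 fold change was −0.34 (standard error 0.33) for miR-6367 and 1.30 (standard error 0.44) for miR-125a-5p. It was −0.64 (standard error 0.30) for miR-6383 and 1.07 (standard error 0.49) for miR-93-5p. For miR-6419 it was −0.12 (standard error 0.26), and for miR-16-5p 1.15 (standard error 0.54). The members of the miR-16-5p seed held 1.29% ± 1.21 of its CPM in the T cell group and 2.87% ± 1.92 in the medium group (± SD, 6 libraries each), and those of the miR-125a-5p seed 8.02% ± 7.25 and 19.99% ± 10.3.

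Members of these groups differ in how far they follow the older miRNA, as the following lines show with the seed in capitals. miR-6367 has the first 13 letters of miR-125a-5p and miR-6353 has the first 12 of miR-16-5p, whereas miR-6419 differs from miR-16-5p at the first base.
miR-125a-5p: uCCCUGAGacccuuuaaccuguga
miR-6367: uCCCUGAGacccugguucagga
miR-16-5p: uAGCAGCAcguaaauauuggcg
miR-6353: uAGCAGCAcguauuuauccuauu
miR-6419: cAGCAGCAaucugacacaugga

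**Figure D5:**
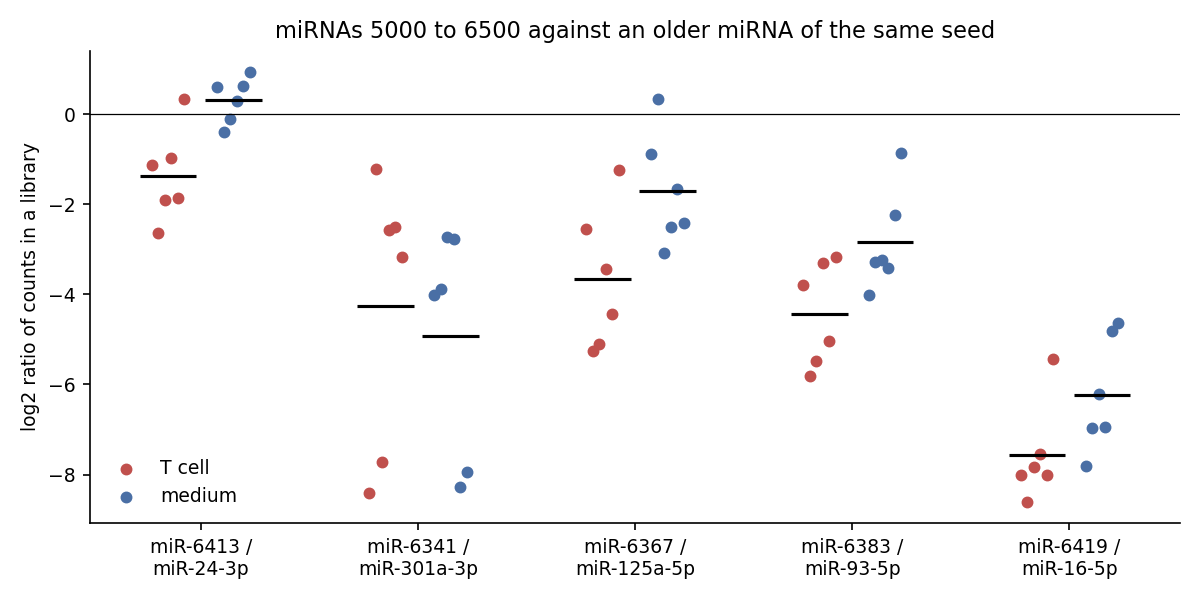
Log2 ratio of counts within a library for 5 miRNAs numbered 5000 to 6500 over the most abundant older miRNA with the same seed (points, libraries; horizontal lines, means; red, T cell; blue, medium; n = 6 each). For miR-6413 over miR-24-3p the means are −1.36 and 0.32, and for miR-6341 over miR-301a-3p the groups overlap.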

How the data were processed

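Small RNA libraries of serum bEVs from 12 Rag1-/- mice (6 given T cells, 6 given medium) were prepared with a Qiagen miRNA kit with unique molecular identifiers and sequenced with single-end reads of 75 bases. Bases were called with bcl2fastq 2.18.0.12 (submitters' processing notes). The authors trimmed the reads and aligned them to miRBase version 21 and the mm10 genome in GeneGlobe. The table they deposited holds raw whole-number counts, with no statement of whether they count reads or molecules. Library totals of 48997 to 130106 and a median mean count of 23.9 per member leave a large counting error.

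From the counts, features were kept by filterByExpr, given TMM factors and compared in edgeR 4.0.16 (R 4.3.3; quasi-likelihood fit and test), with p-values adjusted by Benjamini-Hochberg over all 1720 tested features, with a threshold of 0.05. DESeq2 1.42.0 (Wald test, default filters) and limma 3.58.1 (voom with quality weights) were applied to the same table. Fold changes above 0 on the log2 scale mean more with T cells. DESeq2 is the tool that the paper's methods name. Single miRNAs and ratios (0.5 added to each count) were compared by two-sided exact permutation tests of 6 libraries against 6 (p cannot fall below 0.00216). Mature sequences were matched by name to RefSeq, and positions to GENCODE vM21.

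The members and lists were chosen with earlier results of these data known. Members named are miR-5124a, the 12 with the highest mean CPM, those called by either tool, the 6 with the lowest edgeR p, the 4 highest and 4 lowest fold changes at a mean count of 20 or more, and members that share a sequence or seed (21 by the first rules); any other name was picked once its values were known. Alternatives covered scaling, filter, tool, replicate block and left-out libraries.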

Additional observations from a re-analysis of the deposited data

Results flagged for a closer look

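In 48 groups (24 measures in each of both groups of 6 libraries), 4 libraries stood apart from the other 5 by a gap that was large for the range of the group. A chance rate of about 1 such gap in 20 groups was assumed and was not measured in these data. Members named for their fold change or p need not follow that rate. miR-6375 was at 8661 CPM in T cell replicate 5, where the median of the others was 1257. miR-6358 was at 1268 CPM in medium replicate 3, where the median of the others was 153.1. miR-5118 was at 546.4 CPM in T cell replicate 2, where the median of the others was 151. miR-5100 was at 858 CPM in medium replicate 5, where the median of the others was 1103.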

How the results depend on the processing

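edgeR called 0 members and 0 features under each of its own alternatives, with limma voom and with the replicate block, while DESeq2 called 1 member and 44 features, and 1 and 18 without its filters. DESeq2 called 1 to 3 members and 15 to 68 features with 1 library left out (miR-6395 joined without T cell replicate 4, and miR-6372 and miR-6387 without T cell replicate 6), 0 and 8 without both T cell replicate 2 and medium replicate 3, and 25 features at 50 counts or more in 6 libraries. The median log2 fold change of the members, −0.08, was −0.42 with total counts, −0.60 with abundant miRNAs and −0.30 at 50 counts or more in 6 libraries, and −0.11 to −0.04 with 1 library left out. The cause of these shifts was not tested.

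Of the 21 named members, 13 kept the sign of their fold change under all alternatives, miR-5124a among them (−1.23 to −0.62). The values that changed sign were, for miR-5110, −0.25 with total counts, −0.41 with abundant miRNAs and −0.034 at 50 counts or more in 6 libraries; with abundant miRNAs also miR-6360 (−0.048), miR-6375 (−0.19) and miR-6385 (−0.023); with voom, miR-5616-5p (0.049), miR-6237 (0.015) and miR-6377 (0.18); and without both libraries above, miR-5616-5p (0.073), miR-6377 (0.022) and miR-6420 (0.066). With 1 library left out, miR-5616-5p ran from −0.19 to 0.054, miR-6237 from −0.24 to 0.0013, miR-6375 from −0.40 to 0.63 and miR-6377 from −0.23 to 0.059.

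With the replicate number as a block, miR-5616-5p was at 0.0020 and miR-5124a at −0.75 in edgeR, and DESeq2 called 60 features and 1 member. Libraries with the same number were not paired: their deviations correlated from −0.14 to 0.09, and 1 of 6 correlated best with its own number. The log2 ratio of miR-6413 to miR-24-3p was compared with the difference of miR-24-3p already known. Its difference between the groups kept p under 0.05 without any 1 library (exact permutation p from 0.00216 to 0.0173), and those of miR-6367 and miR-6383 did not. Counting alone gives the members a median coefficient of variation of 20.2%, against 38.4% measured within groups.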
